A study of Mus musculus with 2 samples.

Results

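The genes of MHC class I presentation were examined on the arrays of white matter from WT and CD47 KO mice. They are the heavy chain genes H2-K1 and H2-D1, the light chain gene B2m, the transporter genes Tap1 and Tap2, the tapasin gene Tapbp, the immunoproteasome genes Psmb8, Psmb9 and Psmb10, and Nlrc5. Every probe set that the platform annotation assigns to 1 of these 10 genes was taken, whatever its value, which gave 27 of the 34945 probe sets with a single gene symbol, and 10 of 18193 genes. A further 3 probe sets are assigned to H2-K1 or H2-D1 together with other genes, and are described apart. The tissue was white matter, dissected from the optic nerve and tract, and all mice were male, with WT mice aged 13 to 15 weeks and CD47 KO mice, labelled CD47 null, aged 12 to 15 weeks. The CD47 KO mice carry a germ-line disruption of Cd47, and the sources used here do not name their strain background. The RNA of several mice was pooled into 1 array for each genotype, so no replicate and no test of the genotypes existed, and each value below describes 1 pair of arrays. The number of mice is given as 5 WT and 4 CD47 KO mice in the series description and the methods, and as 4 and 5 in the labelling protocol.

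Class I molecules carry short peptides from the inside of a cell to its surface, where CD8 T cells and natural killer cells read them. Proteasomes cut the peptides, the TAP transporter moves them into the endoplasmic reticulum, and tapasin helps to load them onto a heavy chain paired with β2-microglobulin. Interferon exchanges the catalytic subunits of the proteasome for those of the immunoproteasome, and NLRC5 is the transactivator that drives many class I genes. In healthy brain, class I is carried by endothelium and microglia more than by neurons or myelinating cells.

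Values are MAS5 signals, a background-corrected brightness in arbitrary units, and each ratio is the log2 value of CD47 KO divided by WT. A floor was set at the median of all signals of both arrays, 106.2, and lower signals were raised to it before the ratio was taken. With 1 array at the floor the ratio is a bound. The targeted gene, Cd47, had signals of 3928, 3100 and 2156 in WT for its 3 bright probe sets, and of 1346, 1225 and 838 in CD47 KO, which is 34.3% to 39.5% of WT. The label of the CD47 KO array and its Cd47 signal thus pointed the same way, although the transcript was not lost. The median signal over all probe sets was 107.8 in WT and 105 in CD47 KO, and 50.3% and 49.7% of probe sets exceeded the floor.

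By brightest probe set, the heavy chain, light chain, immunoproteasome and Nlrc5 genes had higher signals in CD47 KO white matter, by less than 2-fold. The transporter and tapasin genes differed less by the same reading. Of the 27 probe sets, 19 exceeded the floor on 1 array or both. Of these 19, 18 had a ratio above 0, where 48.0% of all probe sets did. The ratio was over 1.5-fold higher in 9 of the 19, against 4.26% of all probe sets, and over 1.5-fold lower in 0, against 4.60%. The ratio was over 2-fold higher in 0 of the 19, against 1.05%. One of the 19, an H2-D1 probe set, exceeded the floor in CD47 KO only. Of the 18 that exceeded it on both arrays, 17 had a ratio above 0, against 48.5% of all such probe sets, and 8 were over 1.5-fold higher, against 3.92%. With each gene read from its brightest probe set, 9 of the 10 genes had a ratio above 0, against 46.8% of all genes. By the same reading H2-D1, Psmb8, Nlrc5 and H2-K1, 4 of 10, were over 1.5-fold higher, against 4.02%. The median log2 ratio of the 10 genes was 0.46, and that of all genes was -0.02. Tap2 was the gene below 0. In such bulk tissue, more or fewer cells of a type and more or less RNA per cell cannot be told apart.

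**Figure D1:**
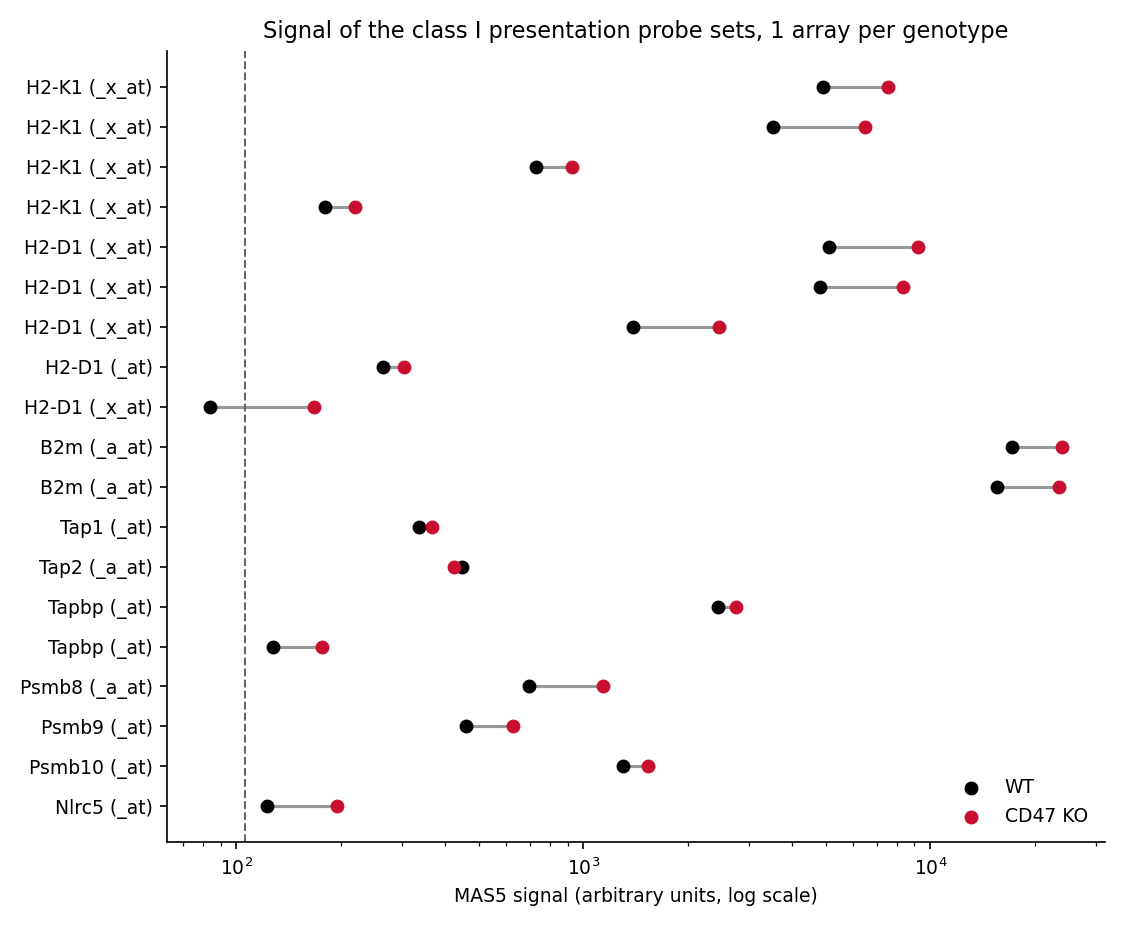
MAS5 signal (arbitrary units, log scale) of the 19 class I presentation probe sets that exceeded the floor, each joined between the WT array (black) and the CD47 KO array (red), with the suffix of the probe set in brackets and the floor of 106.2 as a dashed line. The red point lies to the right in 18 of 19, and the exception is Tap2.

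The suffix of a probe set tells how specific its probes are. Plain _at probe sets match 1 transcript, _a_at probe sets match several transcripts of 1 gene, _s_at probe sets match several transcripts, and _x_at probe sets hold probes that can match other sequences. The 27 probe sets were 10 _at, 4 _a_at, 13 _x_at and no _s_at, and 7, 4 and 8 of them exceeded the floor. The median log2 ratio was 0.24 for the 7 _at probe sets, against -0.01 for all _at probe sets. It was 0.54 for the 4 _a_at probe sets, against 0.00, and 0.73 for the 8 _x_at probe sets, against -0.06. All 8 _x_at probe sets were above 0, against 41.7% of _x_at probe sets on the array, and 6 of 8 were over 1.5-fold higher, against 4.27%. Of the 7 that exceeded the floor on both arrays all were above 0, against 42.0%, and 5 were over 1.5-fold higher, against 3.92%. The 8 belong to H2-K1 and H2-D1 alone, so over all these genes the suffix and the gene cannot be told apart. Within H2-D1, the plain _at probe set above the floor was at 0.20. Its bright _x_at probe sets were at 0.80 to 0.85, and a dim _x_at one had a bound of 0.66. The plain one was also dimmer than the bright ones, and the part of brightness was not tested. The 11 probe sets without this suffix had a median of 0.45, with 10 above 0 and 3 over 1.5-fold higher. Of all 18257 probe sets without _x_at or _s_at, 8834 were above 0 and 790 over 1.5-fold higher, with a median of -0.01.

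By the brightest probe set, H2-D1 had the largest ratio of the 10 genes, and H2-K1 followed Psmb8 and Nlrc5. H2-K1 and H2-D1 encode the classical class I heavy chains, the polymorphic chains that hold the peptide. The brightest H2-K1 probe set read 4908 in WT and 7552 in CD47 KO, a log2 ratio of 0.62 or 1.54-fold. The next read 3530 and 6484, a log2 ratio of 0.88 or 1.84-fold. The 2 dim H2-K1 probe sets differed less, as one read 730.0 and 930.0, with a log2 ratio of 0.35, and the other 179.5 and 219.9, with a log2 ratio of 0.29. All 4 were of the _x_at kind.

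H2-D1 was represented by 9 probe sets, of which 4 stayed under the floor on both arrays. Its brightest probe set read 5102 in WT and 9227 in CD47 KO, a log2 ratio of 0.85 or 1.81-fold. Another read 4802 and 8341, a log2 ratio of 0.80, and the remaining bright _x_at probe set read 1393 and 2459, a log2 ratio of 0.82. The only plain _at probe set of H2-D1 above the floor gave a smaller difference, from 264.5 to 304.4, a log2 ratio of 0.20 or 1.15-fold. A dim _x_at probe set went from 83.9, under the floor, to 167.8 and was at least 1.58-fold higher. The 4 under the floor read between 6.50 and 54.1.

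The 5 probe sets of H2-K1 and H2-D1 with a WT signal over 1000 had log2 ratios of 0.62 to 0.88, with a median of 0.82. The 3 dimmer ones above the floor on both arrays had log2 ratios of 0.20, 0.29 and 0.35, and the dimmest of all, an H2-D1 probe set, had a bound of 0.66. Different probe sets of 1 gene give the sole repeat measurement on such a pair of arrays, and over 2487 pairs in 1226 genes with a mean signal over 1000, 95% differed by less than 0.45 on the log2 scale. All 5 bright heavy chain ratios lay above that size. Over the 14 such pairs within the class I presentation genes, at any signal, the same limit was 0.63, which the brightest H2-K1 probe set, at 0.62, did not exceed. Such a spread leaves out the variation from mouse to mouse and from array to array. One probe set assigned to H2-K1 and H2-D1 together, also of the _x_at kind, read 613.8 and 958.8, a log2 ratio of 0.64, and both other shared probe sets were under the floor. Probes of the _x_at kind can match other sequences, so H2-K1 and H2-D1 probe sets may in part have read each other's transcripts. That was not tested, and the like ratios of their bright probe sets need not be separate measurements.

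The bases before the start of each heavy chain gene are shown because of how much sequence these stretches share. The sequences are from RefSeq on GRCm38.p6, cover 250 bases before the start and read 5′ to 3′ on the strand of the gene. H2-K1 lies at chr17:34000348-34000597 on the minus strand and H2-D1 at chr17:35262844-35263093 on the plus strand. Capitals mark GGGATTCCC, TTTCACTTC, TGACG and CCAAT on either strand, CCAAT being ATTGG on the other.
H2-K1: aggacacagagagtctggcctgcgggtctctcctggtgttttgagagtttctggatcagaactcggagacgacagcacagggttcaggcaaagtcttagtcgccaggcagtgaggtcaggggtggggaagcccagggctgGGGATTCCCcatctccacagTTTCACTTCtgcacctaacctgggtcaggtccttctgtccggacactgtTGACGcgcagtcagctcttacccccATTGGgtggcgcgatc
H2-D1: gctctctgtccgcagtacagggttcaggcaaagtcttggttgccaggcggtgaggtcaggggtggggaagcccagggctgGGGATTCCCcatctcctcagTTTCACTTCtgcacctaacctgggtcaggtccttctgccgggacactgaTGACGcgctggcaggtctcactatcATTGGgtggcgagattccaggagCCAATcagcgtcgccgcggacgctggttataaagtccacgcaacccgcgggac
Over 190 bases aligned without gaps, 166 were identical, or 87.4%, and the longest identical run was 47 bases. RefSeq gives H2-K1 more than 1 start, and the sequence is that before the most upstream one. GGGATTCCC, an NF-κB type sequence, began at -110 in H2-K1 and -170 in H2-D1 from the start. TTTCACTTC, an interferon-response type sequence, began at -90 and -150, and TGACG at -41 and -101. The order and the spacing of the 3 motifs were the same in both. From the other H2-K1 start they began at -124, -104 and -55, and CCAAT at -30 and -6. GGGATTCCC is held by 0.301% of all 32851 RefSeq promoters of this length and TTTCACTTC by 0.402%, on either strand. Both were chosen after the heavy chain sequences had been read, and H2-D1 and H2-K1 were the only ones of the 8 class I presentation genes with a promoter entry that held them. TGACG, the core of the cyclic AMP response element, was found in 17.8% of all promoters and in 5 of these 8 genes, B2m, H2-D1, H2-K1, Psmb9 and Tap1. CCAAT was found in 33.8% of all and in 6 of 8, these 5 and Tapbp. Psmb9 and Tap1 share the same TGACG and CCAAT sites between their starts, so each site was counted for both genes. The shares of all are per promoter entry, whereas the counts among the 8 are per gene.

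B2m encodes β2-microglobulin, the light chain that all classical and most non-classical class I molecules need. Its brighter probe set read 17186 in WT and 23975 in CD47 KO, a log2 ratio of 0.48 or 1.40-fold. The other read 15546 and 23506, a log2 ratio of 0.60 or 1.51-fold. Both were higher in CD47 KO, both were of the _a_at kind, and they differed from each other by less than the 0.45 given above. The promoter of B2m, at chr2:122147437-122147686 on the plus strand, is shown for an interferon-response type motif, GAAANNGAA. That motif lies at -139, followed by TGACG at -78 and CCAAT at -53, all in capitals.
B2m: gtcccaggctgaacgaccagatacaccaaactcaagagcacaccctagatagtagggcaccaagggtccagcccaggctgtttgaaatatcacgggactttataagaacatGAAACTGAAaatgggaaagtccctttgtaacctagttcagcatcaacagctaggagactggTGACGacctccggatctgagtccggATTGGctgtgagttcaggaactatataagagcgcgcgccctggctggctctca
GAAANNGAA was held by 7.13% of all promoters on either strand. Among the 8 genes B2m held this spelling, and H2-K1 and H2-D1 held the spelling TTTCACTTC shown above. GGGANTTCC, 1 spelling of the NF-κB type motif, was held by 1.43% of all promoters and by none of the 8, whereas H2-K1 and H2-D1 held the spelling GGGATTCCC.

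**Figure D2:**
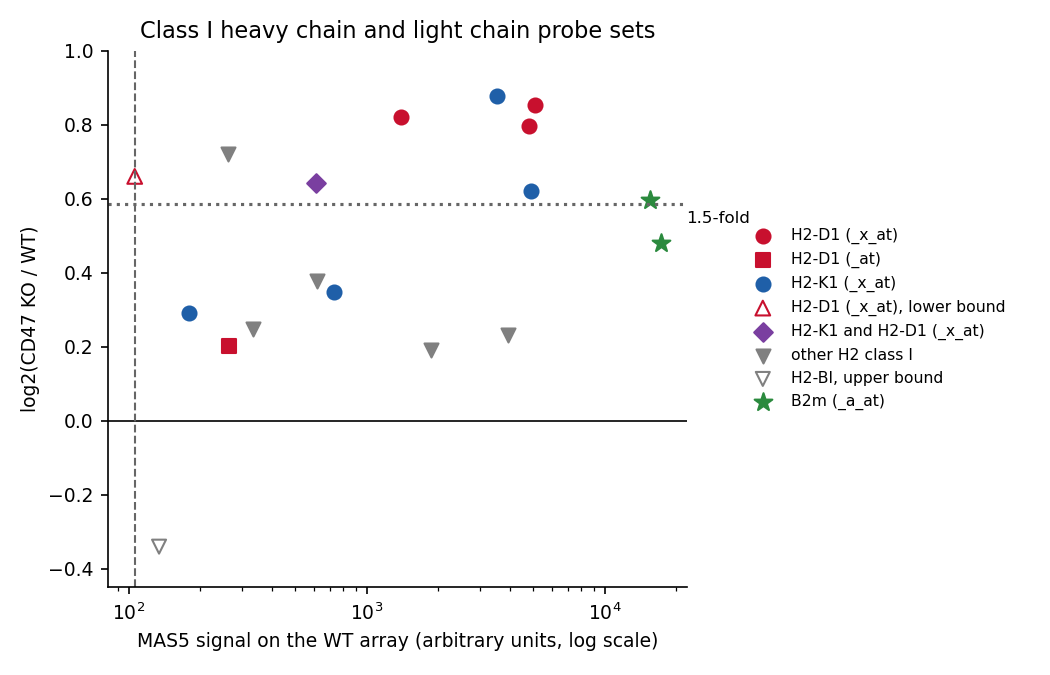
Log2 of CD47 KO / WT against the WT signal (arbitrary units, log scale) for the heavy chain and B2m probe sets above the floor (dashed line), with open symbols for bounds and a dotted line at 1.5-fold. The 5 H2-K1 and H2-D1 probe sets with a WT signal over 1000 lie between 0.62 and 0.88, and both B2m points lie at 0.48 and 0.60.

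Other class I heavy chains of the H2 complex differed less in most cases. Of 24 probe sets for such genes, 6 exceeded the floor, with a median log2 ratio of 0.24, 5 above 0 and 1 over 1.5-fold higher. The 24 include both probe sets under the floor that such genes share with H2-K1 or H2-D1. The one over 1.5-fold, shared by H2-Q9 and H2-Q7, which encode Qa-2, read 260.8 and 429.7, a log2 ratio of 0.72. H2-M3, which presents formylated peptides, read 621 and 807, a log2 ratio of 0.38. The probe set of H2-Q6 and H2-Q8 read 332 and 394, a log2 ratio of 0.25.
The brightest of these probe sets, shared by H2-T23, which encodes Qa-1, and a pseudogene, read 3943 and 4632, a log2 ratio of 0.23. The probe set of H2-T9, H2-T22 and H2-T10, of the _s_at kind, read 1867 and 2131, a log2 ratio of 0.19. H2-Bl went from 134.4 to 65.6, under the floor, and was at least 1.27-fold lower. Fcgrt, Hfe and Mr1, class I-like chains outside the H2 complex, were also measured. Fcgrt, the heavy chain of the neonatal Fc receptor, read 1831 and 1343, a log2 ratio of -0.45, while Hfe had a log2 ratio of 0.18 and Mr1 of -0.07. Partners of B2m other than H2-K1 and H2-D1 thus lay on both sides of 0.

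The immunoproteasome genes were all higher in CD47 KO. Psmb8, Psmb9 and Psmb10 encode the catalytic subunits LMP7, LMP2 and MECL-1. Psmb8 read 698.6 in WT and 1139.8 in CD47 KO, a log2 ratio of 0.71 or 1.63-fold, on an _a_at probe set. Psmb9 read 458.9 and 625.8, a log2 ratio of 0.45 or 1.36-fold, and Psmb10 1299 and 1536, a log2 ratio of 0.24 or 1.18-fold. A second Psmb8 probe set, of the _x_at kind, was under the floor at 52.5 and 65.4.

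The constitutive subunits that they replace differed little. Psmb5, the counterpart of Psmb8, read 3028 and 3149, a log2 ratio of 0.06, and Psmb6, the counterpart of Psmb9, 3706 and 3771, a log2 ratio of 0.03. Psmb7, the counterpart of Psmb10, read 1074 and 923, a log2 ratio of -0.22. The ratio of each immunoproteasome subunit therefore exceeded that of its counterpart, by 0.65 for Psmb8, 0.42 for Psmb9 and 0.46 for Psmb10 on the log2 scale. Over all pairs of probe sets of 1 gene, 11670 pairs in 4744 genes, 95% differed by less than 0.75. The SD of the difference was 0.36. None of the 3 differences between subunits passed 0.75.

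In the rest of the proteasome the 20S core lay close to 0. The 15 constitutive genes of the 20S core and its assembly factor Pomp had log2 ratios from -0.22 to 0.14, with a median of -0.03. Psmb8, Psmb9 and Psmb10 each lay above the highest of them. Among the non-catalytic core genes Psmb4 was at -0.21, Psmb3 at -0.13, Psma1 at 0.14 and Psma6, the brightest, at -0.03. Of the activators and the inhibitor, 4 of 5 were measured and all 4 were above 0, with a median of 0.09. Psme1, the brightest and an activator subunit that interferon induces, was at 0.04, Psme4 at 0.05, Psmf1 at 0.13 and Psme3 at 0.26, above Psmb10 at 0.24. None of the 19 genes was over 1.5-fold in either direction.

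**Figure D3:**
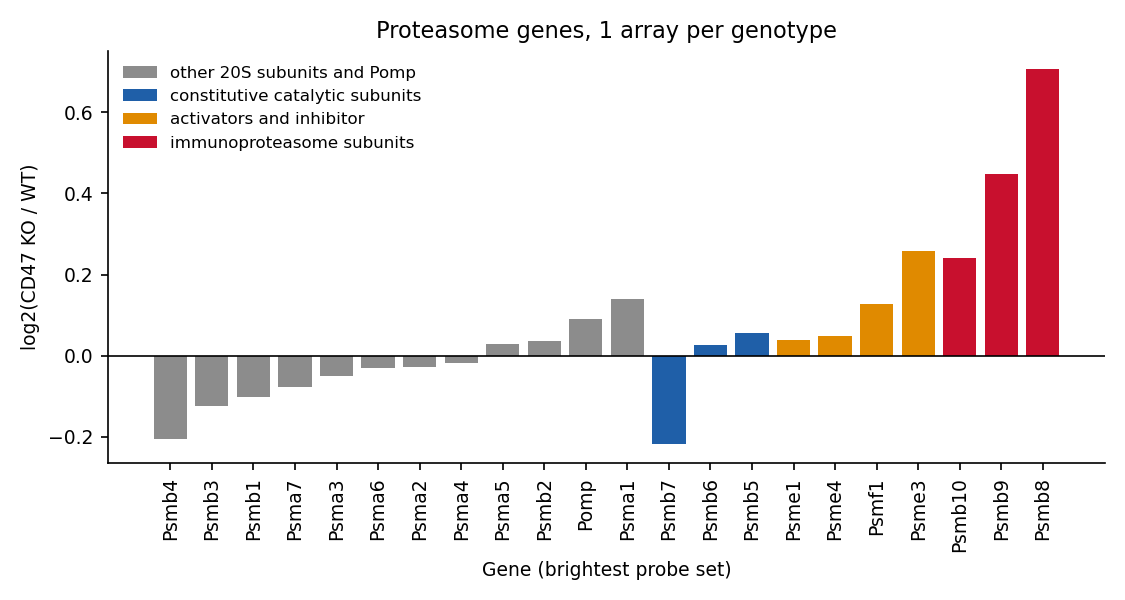
Log2 of CD47 KO / WT for the proteasome genes, each by its brightest probe set, with bars starting at 0. Psmb8 at 0.71 and Psmb9 at 0.45 are the highest bars, and Psmb5, Psmb6 and Psmb7 lie at 0.06, 0.03 and -0.22.

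The promoter of Psmb8, at chr17:34197945-34198194 on the plus strand, is shown as that of the immunoproteasome gene with the largest ratio. Capitals mark the STAT type motif TTCNNNGAA, at -97 from the start, which 7.02% of all promoters hold and which none of the other 7 genes with an entry held.
Psmb8: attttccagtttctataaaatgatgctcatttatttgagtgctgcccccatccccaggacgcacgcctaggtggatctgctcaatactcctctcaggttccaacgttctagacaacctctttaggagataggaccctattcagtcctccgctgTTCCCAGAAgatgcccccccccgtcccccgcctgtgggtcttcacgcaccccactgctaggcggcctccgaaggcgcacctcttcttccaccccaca

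The transporter and tapasin genes differed least by their brightest probe sets. Tap1 and Tap2 encode the subunits of the peptide transporter. Tap1 read 335.5 in WT and 366.5 in CD47 KO, a log2 ratio of 0.13 or 1.09-fold, on an _at probe set, and its 3 other probe sets were under the floor. Tap2 read 448 and 424, a log2 ratio of -0.08, or 1.06-fold lower. Tapbp encodes tapasin, which holds the empty class I molecule at the transporter, and its bright probe set read 2439 and 2748, a log2 ratio of 0.17 or 1.13-fold. A dim Tapbp probe set read 127.1 and 176.1, a log2 ratio of 0.47. These ratios, other than that of the dim Tapbp probe set, were smaller than 0.36, the SD of the difference between probe sets of 1 gene. So were those of Psmb10, at 0.24, the plain H2-D1 probe set, at 0.20, and the dim H2-K1 probe sets, at 0.35 and 0.29. That SD is the spread of a difference between ratios, which is not the spread of 1 ratio. For pairs with a mean signal over 1000 it was 0.22, which Psmb10 exceeded and the bright Tapbp probe set did not.

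Psmb9 and Tap1 share the stretch between them, and it is shown as the 1 stretch that serves a pair of these genes. Their log2 ratios were 0.45 and 0.13, which differ by less than the SD of 0.36 given above. They run in opposite directions, with starts 226 bases apart. The 225 bases between the starts, at chr17:34187331-34187555, are given on the plus strand, that of Tap1, with Psmb9 reading leftwards. Capitals mark CCAAT and TGACG, the latter at -86 from the start of Tap1.
Psmb9-Tap1: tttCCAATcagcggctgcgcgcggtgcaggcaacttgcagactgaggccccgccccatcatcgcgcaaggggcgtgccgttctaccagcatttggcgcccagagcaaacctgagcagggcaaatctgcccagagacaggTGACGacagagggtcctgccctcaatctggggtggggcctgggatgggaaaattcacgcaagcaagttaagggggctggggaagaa

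Other genes of peptide loading and trimming in the endoplasmic reticulum lay near 0. Of the 12 on the list 11 were measured, with a median log2 ratio of 0.06, a range from -0.24 to 0.19 and none over 1.5-fold in either direction. Ganab, a glucosidase of glycoprotein folding, was lowest, and Tapbpl, a tapasin relative that edits peptides, was highest at 335.9 and 383.1. Hspa5, the chaperone BiP, had a log2 ratio of 0.14, and calnexin, Canx, the brightest of the list, read 17016 and 16583. Tap1, Tap2 and Tapbp, at 0.13, -0.08 and 0.17, lay within this range, whereas the heavy chains, B2m and the immunoproteasome genes lay above it.

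Nlrc5 was dim on both arrays. Its single _at probe set read 122.5 in WT, just over the floor, and 195.0 in CD47 KO, a log2 ratio of 0.67 or 1.59-fold. A higher floor, at the 60th percentile of signals, 186.1, brought the log2 ratio to 0.07. Ciita, its class II counterpart, was under the floor at 36.9 and 69.3.

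Among transcriptional regulators of MHC genes other than Nlrc5, 13 of 17 exceeded the floor, with a median log2 ratio of 0.22 and 11 above 0. Irf8, a factor of myeloid cells, read 291.6 and 889.9, 3.05-fold higher, and was the one over 1.5-fold. Components of the RFX complex, which binds class I and class II promoters, had smaller ratios, 0.34 for Rfxank, 0.23 for Rfxap and 0.22 for Rfx5. Creb1, which binds the TGACG motif, was at 0.31, and Rela, an NF-κB subunit and the brightest of the list by signal in WT, read 1818 and 1837, a log2 ratio of 0.02. Irf1 and Irf2, which bind interferon-response motifs, were at -0.10 and -0.16.

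By brightest probe set, genes of the interferon γ pathway had a median close to that of all genes. Of 18, 15 exceeded the floor, with a median log2 ratio of 0.02 and 8 above 0, against 0.46 and 9 of 10 for class I presentation. The 2 over 1.5-fold were both chemokines, Cxcl10 at 690.4 and 1106, a log2 ratio of 0.68, and Cxcl9 at 98.3 and 203.4, at least 1.92-fold higher. Ifngr1, a receptor chain, was at 0.33, and the guanylate-binding protein gene Gbp2, the brightest, read 1894 and 2259, a log2 ratio of 0.25. The interferon-induced GTPase gene Iigp1 was at -0.17, and Ifng was under the floor at 4.59 and 21.1. By brightest probe set, the class I median exceeded that of the interferon γ list by 0.45. With all probe sets of a gene summarised by their median instead, the excess was 0.29, with the class I median at 0.47. In that reading the list median was thus higher, while that of all genes was -0.01. Any part of interferon γ in the class I ratios was not tested.

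MHC class II genes, whose products are read by CD4 T cells, lay on both sides of 0. The 8 measured had a median log2 ratio of -0.09, with 4 above 0. H2-Aa, the brightest, read 4733 and 3631, a log2 ratio of -0.38, and H2-Eb1, another class II chain, was at -0.45. H2-Oa, part of a modulator of class II loading, was at 0.75. Receptors that bind class I were mostly too dim to read, since 5 of the 7 with a probe set were under the floor, Cd8a was at least 1.38-fold lower and Klrd1, a chain of natural killer receptors, at least 1.21-fold higher.

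**Figure D4:**
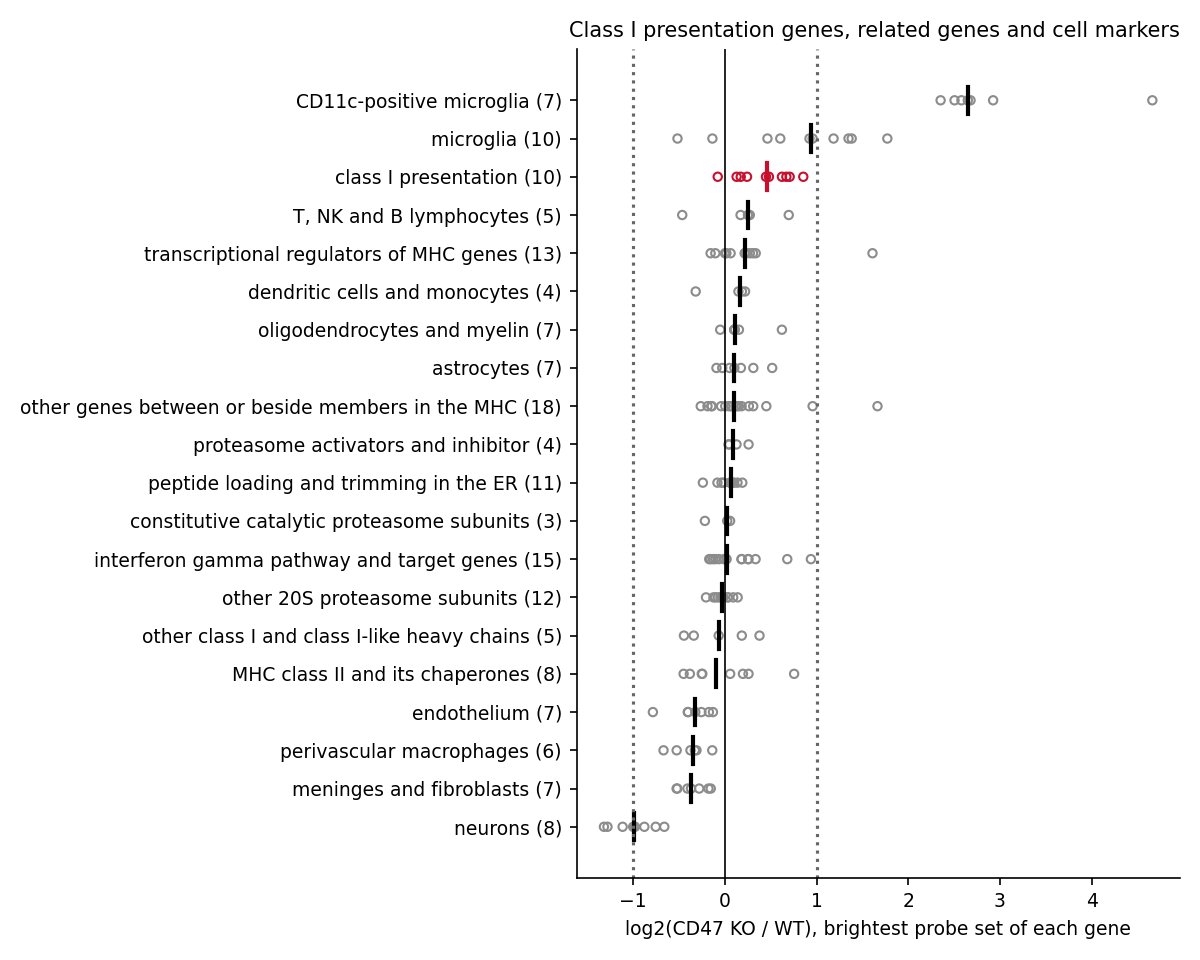
Log2 of CD47 KO / WT, 1 circle per gene by its brightest probe set, for the class I presentation genes (red) and for lists of related genes and cell markers, with the median as a bar, the number of measured genes in brackets and dotted lines at 2-fold. The class I median of 0.46 lies below those of microglia, 0.94, and CD11c-positive microglia, 2.65, and above that of every other list drawn.

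Most markers of microglia were higher in CD47 KO, as most class I genes were. Of 11 microglial markers 10 were measured, 8 of them above 0, with a median log2 ratio of 0.94. Tyrobp at 1.77, Ptprc at 1.38, Cx3cr1 at 1.35 and C1qa at 1.18 were over 2-fold higher, and Csf1r, the brightest, was at 0.46. Tmem119 at -0.52 and P2ry12 at -0.14 were lower. All 7 markers of CD11c-positive microglia were over 2-fold higher, with a median of 2.65. Among them were Trem2 at 2.68, Clec7a at 2.93 and Cst7, at least 25.3-fold higher. The paper had already named Itgax, Clec7a, Cst7, Lpl, Cd68 and Trem2 as markedly increased on these same arrays, so that count is not a separate finding. Summed signals were 39111.5 in WT and 72898 in CD47 KO for the microglial list, 1.86-fold, and 3348 and 22819 for the CD11c-positive list, 6.82-fold. Such sums weight genes by the brightness of their probes. The part of the microglial markers in the class I ratios was not tested.

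Endothelium and macrophages of vessels, which also carry class I, had lower marker signals. All 7 measured endothelial markers were below 0, with a median of -0.32, including Kdr at -0.79, Flt1 at -0.41, Cldn5 at -0.40 and the brightest, Itm2a, at -0.26, while Pecam1 and Tie1 were under the floor. Over all 9 with a probe set the summed signal was 0.830 of WT. All 6 markers of perivascular macrophages were below 0, with a median of -0.35 and a summed signal of 0.769 of WT, including Cd163 at -0.67, Pf4, the brightest, at -0.53 and Cbr2 at -0.38.

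Lymphocyte markers were dim, and 7 of the 12 with a probe set were under the floor, including Cd3e, Cd3g, Cd4, Cd8b1, Cd79a and Ms4a1. Of the 5 others, Cd3d, Klrd1 and Nkg7 exceeded the floor in CD47 KO only, with signals up to 172.0, Cd8a in WT only, and Jchain on both arrays at 133.9 and 159.4. Over all 12 the summed signal was 696.4 in WT and 1023 in CD47 KO. For dendritic cells and monocytes, Ccr2, Flt3 and Xcr1 were under the floor. The other 4 had a median of 0.17, with Plac8 at -0.32, S100a9 at 0.22, Zbtb46 at 0.19 and S100a8, the brightest, at 0.15. The part of these markers in the class I ratios was not tested.

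The tissue label was checked against myelin genes, which do not tell how much other tissue each pool held. The 7 markers of oligodendrocytes and myelin were bright, with a median log2 ratio of 0.11, Opalin at 0.62, Mobp, the brightest, at 0.15 and Mog at 0.11. The 7 of astrocytes had a median of 0.10, with Gfap at 0.52, Aqp4 at 0.31, Slc1a3 at 0.17 and Gja1, the brightest, at -0.09. Neuronal markers had a median of -0.99, with all 8 below 0, including Nefm at -1.32, Slc17a6 at -1.28, Gad1 at -1.12 and Snap25, the brightest, at -0.98, while Rbfox3 read 681.7 in WT and 340.6 in CD47 KO. The 7 markers of meninges and fibroblasts had a median of -0.37, including Aldh1a2 at -0.53, Col1a1 at -0.52, Slc22a6 at -0.41 and Dcn, the brightest, at -0.37. The part of these differences in the class I ratios was not tested.

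Of the 10 class I presentation genes, 7 lie in the MHC on chromosome 17, which allowed their neighbours to be read as well. From Daxx to H2-D1 RefSeq places 92 protein-coding genes, of which 65 were measured. The 7 had a median log2 ratio of 0.45 with 6 above 0, and the 58 others a median of 0.02 with 32 above 0, or 0.01 without class II genes. Psmb9, Tap1, Psmb8 and Tap2 stand side by side, and their log2 ratios were 0.45, 0.13, 0.71 and -0.08 in that order.

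Of the 58 others 4 were over 1.5-fold higher and 2 over 1.5-fold lower. Ager, a pattern recognition receptor, read 134 and 425 on an _s_at probe set, 3.17-fold higher. Clic1, a chloride channel protein, was at 0.45 and Rps18, the brightest neighbour listed, at 0.07. Aif1, the microglial protein Iba1, was at 0.96, H2-Oa at 0.75 and Vars, a tRNA synthetase, at 0.70. Atp6v1g2, a proton pump subunit of neurons, was at -0.77, and Ly6g6c at -0.62, a bound with CD47 KO at the floor. B2m, Psmb10 and Nlrc5 lie on other chromosomes and had log2 ratios of 0.48, 0.24 and 0.67, within the range of those in the MHC.

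**Figure D5:**
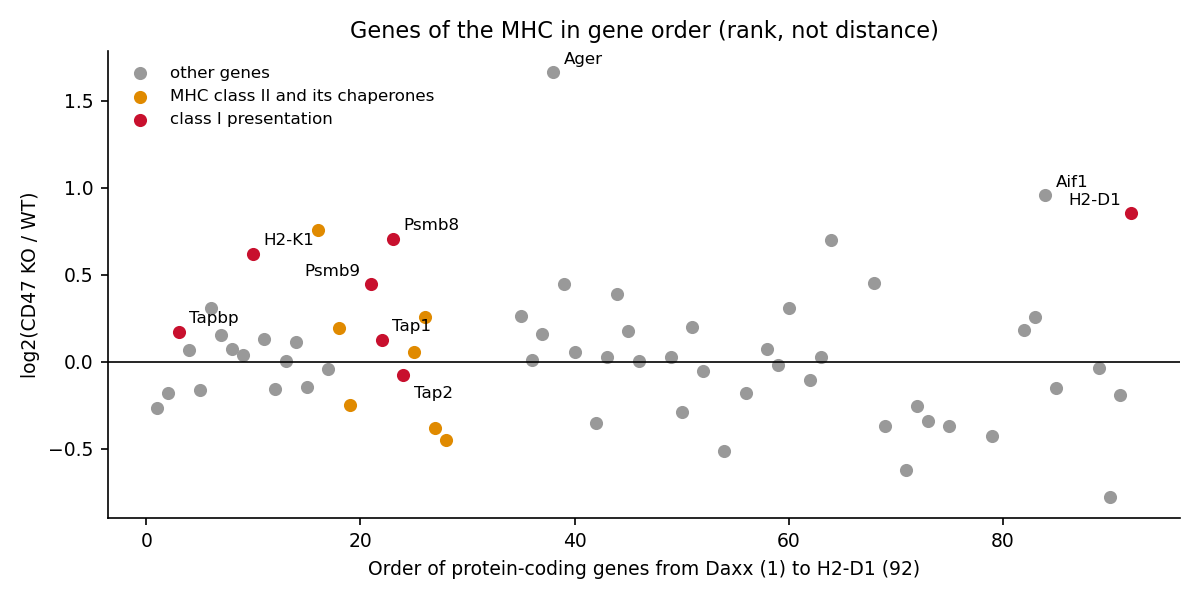
Log2 of CD47 KO / WT for 65 measured genes of the MHC against their rank from Daxx (1) to H2-D1 (92), by brightest probe set, with class I presentation genes in red, class II genes in orange and others in grey. The 7 red points lie between -0.08 and 0.85, and the neighbours Psmb9, Tap1, Psmb8 and Tap2 lie at 0.45, 0.13, 0.71 and -0.08.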

How the data were processed

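White matter RNA was pooled by genotype, labelled from 250 ng and hybridised to Affymetrix mouse arrays. The authors used the Command Console and Expression Console software, and the submitters' processing notes name MAS5, without a version. Each deposited value is 1 probe set's MAS5 intensity, which is linear. The trimmed mean, with 2% left out at each end, was 500.003 on both arrays, so each had been scaled to 1 target, and a shift common to all genes cannot be seen.

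Of 45101 probe sets 64 controls were set aside, 932 had several symbols and 9160 none. The floor was the 50th percentile of both arrays together, 106.2. It shortens the ratios of genes close to background. Of the single-symbol probe sets 21139 exceeded the floor on 1 array or both, for 12481 genes. A gene was read from its brightest probe set by mean log2 intensity. Probes differ in affinity, so a brighter gene is not taken as a more abundant one; the brightest gene of a list is named, and signals are summed over a list, as descriptions of signal. All 27 probe sets of the class I presentation genes were found by gene identifier in the RefSeq table of GRCm38.p6, used for gene order.

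With 1 array per genotype no test was made, and the precision is limited by the number of arrays. The genes and lists were chosen with earlier results of these data known. Named were all class I presentation genes, Psmb5, Psmb6, Psmb7, measured class I heavy chains, Cd47 and, from other lists, the 3 largest absolute ratios, genes over 2-fold where there were 5 or fewer, and the brightest gene. Other names, among them marker genes, regulators with smaller ratios and MHC neighbours, were chosen after their values were seen. Promoters were searched on both strands. The ratio step was run on simulated data, with known fold changes set into probe sets well above the floor. That run did not cover the normalisations, the lists or the promoter searches. Alternatives were other floors (40th percentile, 60th percentile, none), other normalisations (quantile, median centring, loess), leaving out _x_at and _s_at probe sets, and the median over the probe sets of a gene. Python 3.11.15, numpy 2.4.6, pandas 2.3.3, scipy 1.17.1 and statsmodels 0.14.6 were used.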

Additional observations from a re-analysis of the deposited data

How the results depend on the processing

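For the 19 probe sets above the main floor, no value changed sign under the alternatives of floor and normalisation. Of 112 such values, 111 moved by less than 0.36, the SD of the difference between probe sets of 1 gene. A dim H2-D1 and a dim Tapbp probe set gave no value at the 60th percentile floor. Probe sets that entered only with no floor are not among the 112. With them 21 of 27 were above 0, against 18 of the 19 above the main floor. The share of all probe sets above 0 is not given for that setting, so the 21 has no value to be set beside. The 1 value that moved more was that of Nlrc5, with a log2 ratio of 0.07 at the floor of the 60th percentile, 186.1, by that floor's construction. Without _x_at and _s_at probe sets, H2-K1 had none left, and H2-D1 was read from its plain _at probe set, at 0.20 instead of 0.85. In that reading 10 of 11 probe sets were above 0 and 3 were over 1.5-fold higher. Of all 18257 such probe sets, 8834 were above 0 and 790 over 1.5-fold higher. The 2 genes over 1.5-fold higher were Psmb8 and Nlrc5, and H2-D1 no longer was. Over all alternatives run, the median of the class I presentation genes lay between 0.24, without _x_at and _s_at probe sets, and 0.50, with median centring. That of all genes lay between -0.02 and 0.02. The count over 1.5-fold higher was 7 to 9 probe sets under the other alternatives, and the count over 2-fold was 0 in every one. Shares of all probe sets are not given for those other floors and normalisations, so these counts tell only how the class I values moved. With no floor the median of the _x_at probe sets was 0.38, since dim probe sets then counted. Class I presentation minus the endoplasmic reticulum loading list was 0.18 to 0.53, minus constitutive catalytic subunits 0.22 to 0.44, minus the interferon γ list 0.22 to 0.45, and minus class II 0.37 to 0.75. No paired analysis was possible because each genotype had 1 array and the labels give no replicate numbers. With 1 array per genotype the number of arrays limits every value, and signals near the floor, as for Nlrc5, leave little signal over background.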
